A study of Rattus norvegicus with 8 samples.

Results

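The genes described here encode the subunits of the NMDA receptor, a glutamate-gated channel, in the cerebral cortex of mature rats after a neonatal brain insult. The members are 7 genes, Grin1, Grin2a, Grin2b, Grin2c, Grin2d, Grin3a and Grin3b, found on the arrays by matching each probe's RefSeq accession to a gene symbol. Of the 7 genes, 6 had a probe, with 7 probes among the 41012 on the array, and 5 entered the test over 21677 genes. Grin3a was not matched to a probe and was not analysed here.

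NMDA receptors are tetramers that open only when glutamate is bound, a co-agonist such as glycine or D-serine is bound and the membrane is depolarised enough to expel magnesium from the pore. GluN1, the product of Grin1, is the obligatory subunit, while the GluN2 subunits bind glutamate and set the kinetics and magnesium block of the channel. In rodent forebrain Grin2b and Grin2d are prominent early in life and Grin2a rises after birth, and calcium entry through these receptors is a well known route of excitotoxic injury in hypoxia-ischemia.

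Total RNA was labelled with Cy3 and measured on 1-colour Agilent rat arrays, with 1 Wistar rat of 8 weeks per array. The hypoxic-ischemic (HI) group, called Rice in the labels, held 4 rats in which, at 7 days of age, the left carotid was tied and severed before 1 h in 8% oxygen at 33 °C. The control group held 4 rats without the insult, and no sham operation is mentioned for them. The cortex taken was that of the hemisphere opposite to the cut artery, or of the same side in controls, so the comparison asks about cortex away from the directly injured side. The sexes of the animals are not given in the sources used here.

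The processed intensity at the 75th percentile was 436.1 to 510.2 on 7 arrays and 234.2 on that of control 1. Over all probes the array of control 1 correlated with the others at 0.942 to 0.954, and the other 7 correlated among themselves at 0.973 to 0.990. Results are therefore given with and without control 1. The controls shared 1 slide and scan and the HI animals a different one, which cannot be told apart from the insult. Slc17a7, the vesicular glutamate transporter of cortical projection neurons, was well above background on all 8 arrays, whereas Gabra6, a cerebellar granule cell marker, was so on 1. Of the other markers in the cerebellar list, Neurod1 and Pax6 were so on all 8 arrays and Zic1 on 3 of 4 in each group. The purity of the dissected cortex was not tested. Precision is limited by there being 4 arrays a group.

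No NMDA receptor subunit gene passed the test between HI and control animals, with the threshold set at an adjusted p of 0.05. Grin2c and Grin2a measured lower after HI, at 0.792 and 0.739 of the control level with all arrays and at 0.85 and 0.913 without control 1, while Grin1 measured 0.941 and 1.03 and Grin2b 0.988 and 1.01. The count was 0 of the 5 genes tested with limma, where 0.918% of all genes passed. Among the 5, Grin2d had a usable value in 1 animal a group, so its fit held no spread of its own. An unadjusted p under 0.05 was found for 1 of the 5, Grin2c, where 10.6% of all genes had one. Without control 1 the count was 0 of 4 genes, with 3.64% of all genes passing, and 0 of 4 had an unadjusted p under 0.05 (20.6% of all genes). For none of the 4 genes measured on all arrays did the control and HI levels separate, while 14.2% of all genes had groups that do not overlap, 8.24% with HI lower; without control 1 these shares were 21.7% and 11.2%. In whole cortex fewer cells of a type and less RNA per cell cannot be told apart.

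Levels are log2 of the processed signal over the array's 75th percentile, so 0 is the 75th percentile, and they are compared between animals for the same probe only, since probes differ in efficiency. The probes of Grin1, Grin2b and Grin2c and one of the Grin2a probes were printed as 10 spots on every array, which gives a technical error for each animal. The SD of the 10 spots was 0.0166 to 0.0589 for Grin1 and 0.0339 to 0.0683 for Grin2c, and at most 0.0832 for Grin2a and Grin2b. The largest standard error of an array's mean was 0.0263. The SD between HI animals, at 0.0466 for Grin1, 0.102 for this Grin2a probe and 0.153 for Grin2c, was larger than that standard error, whereas for Grin2b it was 0.0127.

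**Figure D1:**
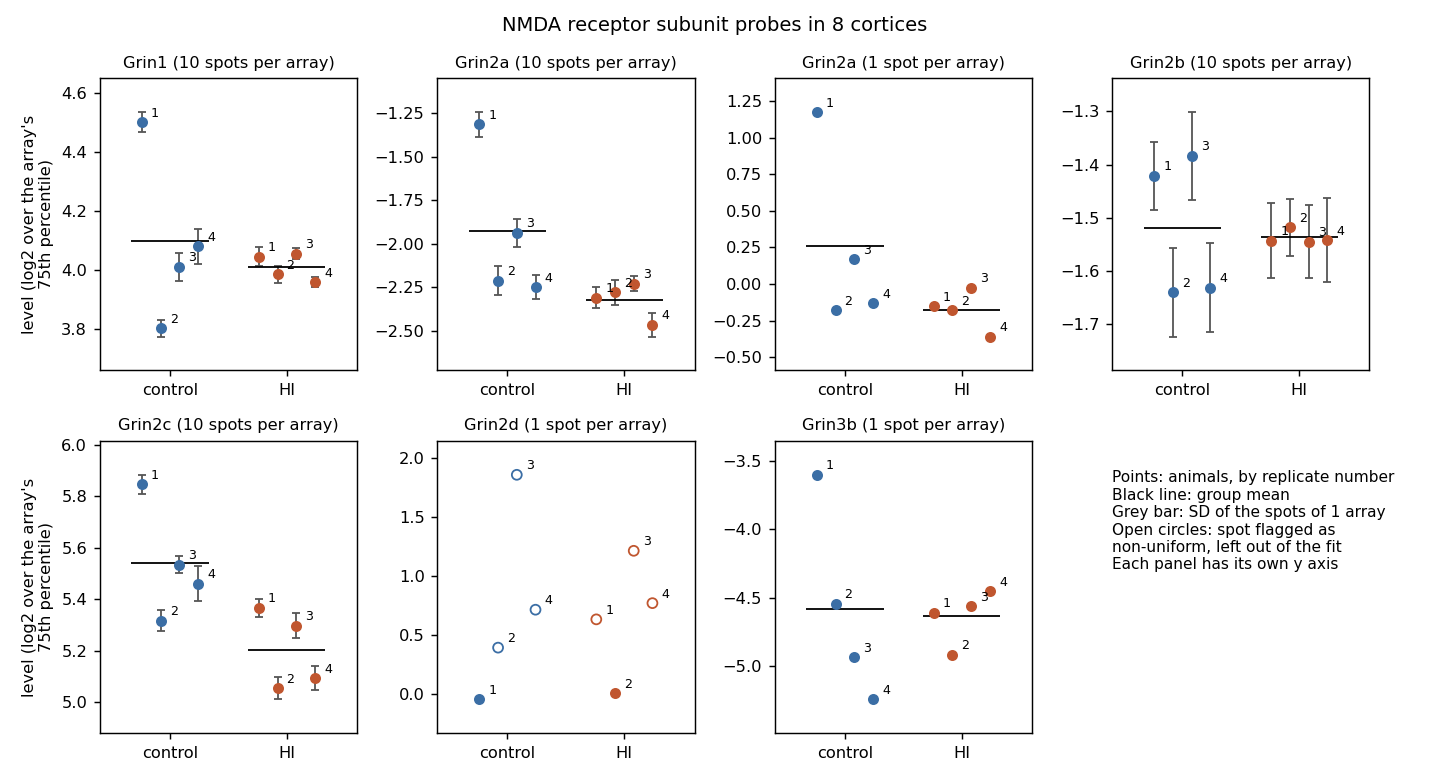
Level of each probe (y axis, log2 over the array's 75th percentile) in the 4 control and 4 HI animals, with the group mean as a black line and, for probes with 10 spots, the SD of the spots of 1 array as a grey bar. Control 1 is the highest control for Grin1, both Grin2a probes, Grin2c and Grin3b; open circles for Grin2d mark spots flagged as non-uniform.

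Grin1 (RefSeq NM_017010) encodes the subunit present in every NMDA receptor. Its level was 4.50, 3.80, 4.01 and 4.08 in controls 1 to 4. The HI animals measured 4.05, 3.99, 4.06 and 3.96. The HI values lay inside the range of the controls, which was set by control 1 at the top and control 2 at the bottom. The change was -0.09 on the log2 scale (SE 0.154, limma adjusted p = 0.76), a ratio of 0.941 with a 95% interval of 0.736 to 1.20. Without control 1 the sign turned, to 0.05 (SE 0.0795, adjusted p = 0.771), and the ratio was 1.03 with an interval of 0.906 to 1.18.

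Grin2b (NM_012574) encodes the GluN2B subunit, which binds CaM kinase II and carries slowly decaying currents. Control levels were -1.42, -1.64, -1.38 and -1.63. In the HI animals they were -1.54, -1.52, -1.55 and -1.54, and their SD was 0.0127 against 0.136 between controls (n = 4 each). The HI values sat in the middle of the control range. The change was -0.02 (SE 0.103, limma adjusted p = 0.929), and the ratio was 0.988 with a 95% interval of 0.838 to 1.16. It was 0.01 (SE 0.0766) without control 1, with an interval of 0.891 to 1.15 for the ratio. The spread of Grin2b within groups was among the smaller ones, since 6.96% of 21630 genes varied less, but 29.4% did so without control 1.

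Grin2a (NM_012573) encodes GluN2A, the faster subunit that increases in forebrain after birth, and it had 2 probes. The brighter one, which represents the gene in the test, measured 1.17, -0.18, 0.17 and -0.13 in controls. HI levels were -0.15, -0.18, -0.03 and -0.36. Control 1 stood far above all other animals, and the remaining controls overlapped the HI animals. The change was -0.44 (SE 0.291, limma adjusted p = 0.581) with all arrays and -0.13 (SE 0.114, adjusted p = 0.549) without control 1. As a ratio this is 0.739 with a 95% interval of 0.464 to 1.18, and 0.913 with an interval of 0.756 to 1.10 without control 1.

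The other Grin2a probe, with 10 spots, measured -1.32, -2.21, -1.94 and -2.25 in controls. HI animals measured -2.31, -2.28, -2.23 and -2.47. Both probes ranked control 1 highest, control 3 next and HI 4 lowest. The mean difference of this probe was -0.39 with all arrays and -0.19 without control 1. HI 3, at -2.23, lay above control 4, so the groups overlapped.

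Grin2c (NM_012575) encodes GluN2C, a subunit of weak magnesium block that is best known from cerebellar granule cells. Its level was 5.85, 5.32, 5.53 and 5.46 in controls. In HI animals it was 5.37, 5.05, 5.30 and 5.09. All HI animals except HI 1 lay below every control, and HI 1 was above control 2 alone. The change was -0.34 (SE 0.145, limma adjusted p = 0.464), a ratio of 0.792 with an unadjusted 95% interval of 0.628 to 0.998. Without control 1 it was -0.23 (SE 0.101, adjusted p = 0.253), a ratio of 0.85 with an interval of 0.720 to 1.00. Of the 21677 genes tested, 10.4% had a smaller p than Grin2c. The spots were not saturated on any array, with median processed intensities of 13459 to 20561.

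Markers of the cells and regions that could carry Grin2c were read beside it. The summed level of the 10 astrocyte markers was 7.20 to 7.39 in controls and 7.27 to 7.42 in HI animals, with 6 of the 10 below 0 in change and a median of -0.07. The members went both ways, from -0.96 for S100b, a calcium-binding protein (SE 0.199, limma adjusted p = 0.0956), to 0.88 for Gjb6, the gap junction protein connexin 30 (SE 0.213, adjusted p = 0.157). In both genes the control and HI levels did not overlap, nor did they in Aqp4, with HI lower, and Aldh1l1, with HI higher. In Aqp4 the lowest control was at -1.5457 and the highest HI animal at -1.5463. In Aldh1l1 the highest control was at 1.668 and the lowest HI animal at 1.674. Both of these margins were smaller than 0.0263, the largest standard error of an array's mean for the 10-spot subunit probes. Among all genes 14.2% had groups that do not overlap. Without control 1, 5 of the 10 were below 0. S100b, at -1.09 (SE 0.171, limma adjusted p = 0.0219), then passed, as did 3.64% of all genes. Gjb6, at 0.93 (SE 0.229, limma adjusted p = 0.0814), did not. The 8 measured interneuron markers summed to 5.83 to 6.32 in controls and 5.60 to 6.07 in HI animals. Their members also went both ways, from -0.81 for Calb2 to 0.51 for Reln. The Reln value rested on control 4, whose single spot measured -0.63 where the other controls lay between 2.18 and 2.34. A second, dimmer Reln probe measured 1.48 in control 4 and changed by 0.17. Gad2, at -0.67, had control and HI levels that did not overlap. Cerebellar granule cell markers had 2 of 6 genes tested, whose sum was 1.06 to 2.29 in controls, the highest in control 1, and 0.87 to 1.16 after HI. Gabra6 reached that mark on control 4 alone. The part of these lists in the Grin2c values was not tested.

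Grin2d (NM_022797), which encodes the slowest GluN2 subunit, had a single spot that the image analysis flagged as non-uniform on 6 of the 8 arrays. The fit therefore rests on control 1, at -0.04, and HI 2, at 0.01. The change between these 2 animals was 0.05. With 1 animal a group the fit held no spread of Grin2d itself, so no error is given for it. With the flagged spots kept, a choice made after seeing the data, controls measured -0.04, 0.40, 1.86 and 0.72. HI animals then measured 0.63, 0.01, 1.21 and 0.77. The change was -0.07 (SE 0.420, adjusted p = 0.929). These values give no usable estimate for Grin2d, and without control 1 the fit held no control value.

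Grin3b (NM_133308) encodes a GluN3 subunit, a glycine-binding type best known in motor neurons. Its probe was well above background on 3 of 4 arrays in each group, so it did not enter the test. The levels were -3.60, -4.54, -4.94 and -5.24 in controls. HI animals measured -4.61, -4.92, -4.56 and -4.45. The HI animals lay within the control range with control 1, and without it HI 4 lay above the highest control. With no filter on dim probes the change was -0.06 (SE 0.339, limma adjusted p = 0.932), and the difference of the means turned to 0.27 without control 1.

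**Figure D2:**
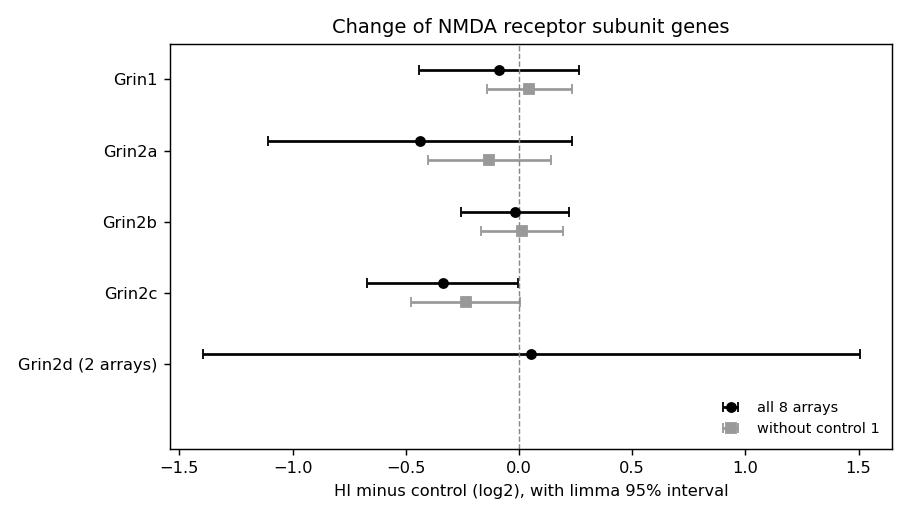
Difference of each tested subunit gene (log2, HI minus control) and its 95% interval from limma, for all 8 arrays (black circles) and without control 1 (grey squares). All intervals except that of Grin2c with all arrays include 0, and Grin2a moves from -0.44 to -0.13 when control 1 is left out. The Grin2d interval rests on 1 animal a group and does not measure the spread of that gene.

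The balance of the subunits can be followed within each array, where the scaling of the array cancels. The difference between 2 probes has an arbitrary zero, so only its shift between animals is read. For Grin2a minus Grin2b, the subunits whose proportion shifts during forebrain maturation, the brighter Grin2a probe gave 2.59, 1.46, 1.55 and 1.50 in controls. HI animals gave 1.39, 1.34, 1.52 and 1.18. The groups overlapped through HI 3. Controls averaged 1.78 ± 0.55 and HI animals 1.36 ± 0.14 (SD over 4 animals a group), a difference of -0.42 with p = 0.0857 in a two-sided exact permutation test, where the smallest p possible is 0.0286. Without control 1 the difference was -0.15 (exact permutation p = 0.171, smallest possible 0.0571).

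With the 10-spot Grin2a probe, a choice made after seeing the data, the difference from Grin2b was 0.11, -0.57, -0.55 and -0.62 in controls. It was -0.77, -0.76, -0.69 and -0.92 in HI animals. Every HI animal lay below every control. The means differed by -0.37 (exact permutation p = 0.0286, the smallest that 4 against 4 can give) and by -0.20 without control 1 (p = 0.0571, again the smallest possible in that exact test), so the size depended on control 1 while the separation of the groups did not. The call thus differed between the 2 probes of the same gene. Among all tested genes 6.04% had a level relative to Grin2b that was lower in every HI animal than in every control, and 8.1% without control 1; in either direction 10.2% and 15.2% separated.

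The difference of Grin2c from Grin1, also chosen after seeing the data and described without a test, was 1.34, 1.51, 1.52 and 1.38 in controls. In HI animals it was 1.32, 1.07, 1.24 and 1.13. The groups did not overlap, although HI 1 lay just below control 1. The gap between these 2 animals was smaller than the largest standard error of an array's mean, 0.0263. Without control 1 the lowest control was control 4, at 1.38. Controls averaged 1.44 ± 0.09 and HI animals 1.19 ± 0.11 (SD, n = 4 each), a shift of -0.25, and it was -0.28 without control 1. Such a separation toward lower HI values relative to Grin1 was found for 5.42% of all genes tested, and for 11.6% without control 1; in either direction it was 8.89% and 15.9%.

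Measured against Grin2b, Grin2c was shifted by -0.32 with all arrays and by -0.25 without control 1. The groups again did not overlap, with the lowest control at 6.92 and the highest HI animal at 6.91. That gap was smaller than the largest standard error of an array's mean, 0.0263. Relative to Grin2b, 6.04% of all genes separated with HI lower, and 8.1% without control 1. In either direction 10.2% and 15.2% did. Grin2c minus the 10-spot Grin2a probe moved by 0.06, or -0.05 without control 1, and there the groups overlapped. Grin2b minus Grin1 moved by 0.07, or -0.03 without control 1, also with overlapping groups. Grin2a minus Grin1 differed by -0.30, or by -0.23 without control 1, and control 4, at -6.33, lay within the HI range of -6.43 to -6.27.

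**Figure D3:**
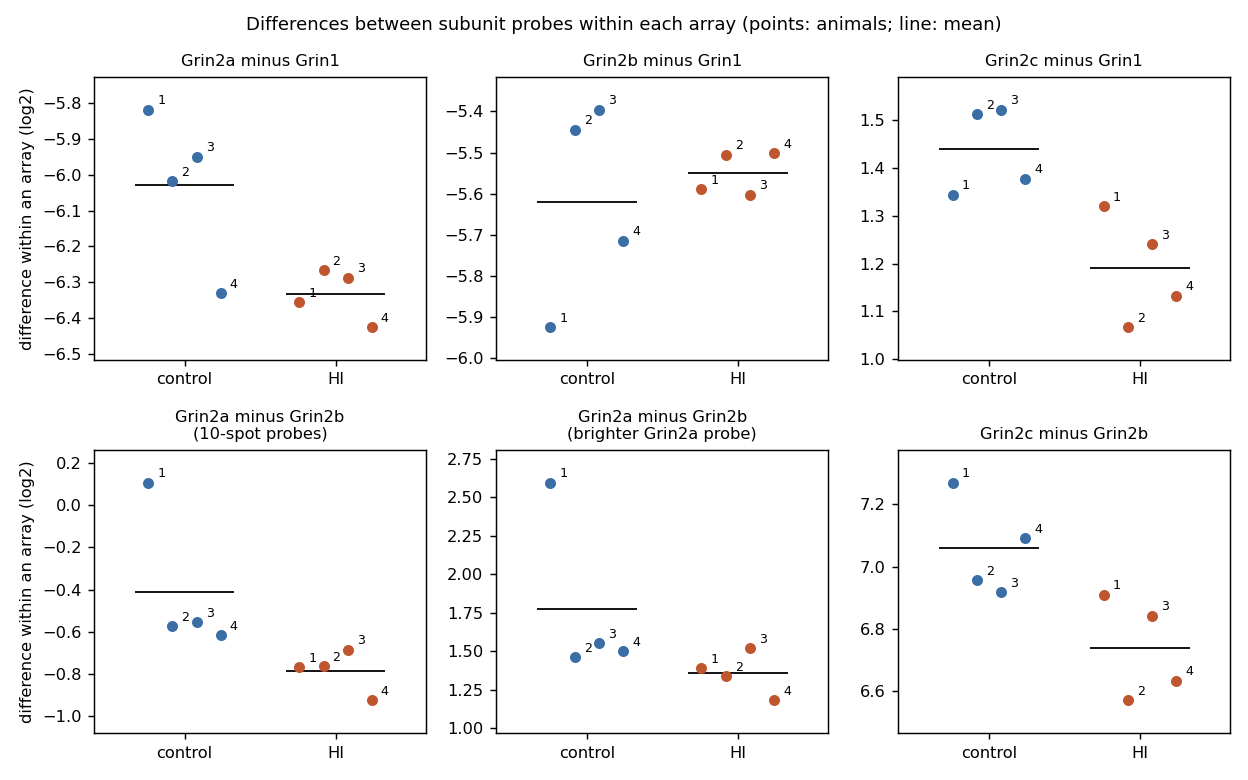
Difference between 2 subunit probes within each array (y axis, log2) in control and HI animals, numbered by replicate, with the group mean as a line. The groups do not overlap for Grin2c minus Grin1, Grin2c minus Grin2b and the 10-spot Grin2a probe minus Grin2b. For Grin2c minus Grin2b the margin is within technical error (lowest control 6.92, highest HI animal 6.91). The same holds for Grin2c minus Grin1 with all arrays (lowest control 1.34, highest HI animal 1.32). Control 1 stands apart in both Grin2a minus Grin2b panels.

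The other genes of NMDA receptor function were read from 4 lists, and with all arrays none of their tested members passed limma's adjusted threshold. Scaffold and trafficking genes had 15 of 20 members tested, 5 above 0 and 10 below, with a median change of -0.06. Cask, a membrane-associated guanylate kinase (log2 change -0.22, SE 0.108, adjusted p = 0.520), and Dlg1, the scaffold SAP97 (-0.21, SE 0.128, adjusted p = 0.571), had the smallest p. Without control 1 they measured -0.16 and -0.14. Dlg4, the PSD-95 scaffold that anchors GluN2 subunits, measured -0.15 (SE 0.153) with all arrays and -0.02 (SE 0.0882) without control 1. Over all genes the median change was -0.03, so the list lay near it.

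Genes of NMDA receptor signalling had 19 of 22 members tested, 11 above 0 and 8 below, with a median of 0.00. Ppp3r1, the regulatory subunit of the phosphatase calcineurin (-0.42, SE 0.208, adjusted p = 0.526), and Calm2, a calmodulin gene (0.30, SE 0.179, adjusted p = 0.570), came first by p. Without control 1, Ppp3r1 measured -0.48 (SE 0.215) and Calm2 0.12 (SE 0.0548). Camk2a, the CaM kinase that GluN2B binds, measured -0.14 (SE 0.196) with all arrays and -0.02 (SE 0.178) without control 1. Of the 14 genes for supply of glycine and D-serine, 9 were tested, 3 above 0 and 6 below, with a median of -0.05. Psat1, an enzyme of serine synthesis, had the smallest p (-0.35, SE 0.128, adjusted p = 0.370), followed by Slc7a10, the transporter Asc-1 that exchanges D-serine and glycine (-0.23, SE 0.262, adjusted p = 0.647). Without control 1, Psat1 measured -0.30 (SE 0.111), while the sign of Slc7a10 turned, to 0.02 (SE 0.141). Srr, the serine racemase that makes D-serine, measured 0.02 (SE 0.0931) with all arrays and 0.06 (SE 0.0486) without control 1. The median of this list was 0.02 without control 1. Over these 3 lists 1 member, Psat1, had an unadjusted p under 0.05 with all arrays, where 10.6% of all genes had one. Without control 1, 5 members did (Slc6a9, Psat1, Slc1a4, Ptk2b and Apba1), where 20.6% of all genes had one, and none of the members of these lists passed the adjusted threshold.

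AMPA and kainate receptor subunits, the other ionotropic glutamate receptors, had 7 of 9 members tested, 4 above 0 and 3 below, with a median of 0.11. Gria4 was counted below 0 from its brighter probe, at -0.41, or -0.0056 without control 1. Its dimmer probe went the other way, at 0.63 with all arrays. Both Gria2 probes lay above 0, at 0.49 and 0.32. Gria1, an AMPA receptor subunit, measured 2.36, 1.63, 1.91 and 1.56 in controls. HI animals measured 2.67, 2.60, 2.47 and 2.50. All HI animals lay above all controls, with control 1 the nearest, and 14.2% of all genes had groups that do not overlap. The change of 0.70 (SE 0.184) did not pass (limma adjusted p = 0.203). Without control 1 it was 0.86 (SE 0.101, limma adjusted p = 0.0068) and passed, as did 3.64% of all genes. Gria3, another AMPA receptor subunit, measured -0.46 (SE 0.259, limma adjusted p = 0.559) and -0.18 (SE 0.0794) without control 1. In Gria3 all HI animals lay below all controls.

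**Figure D4:**
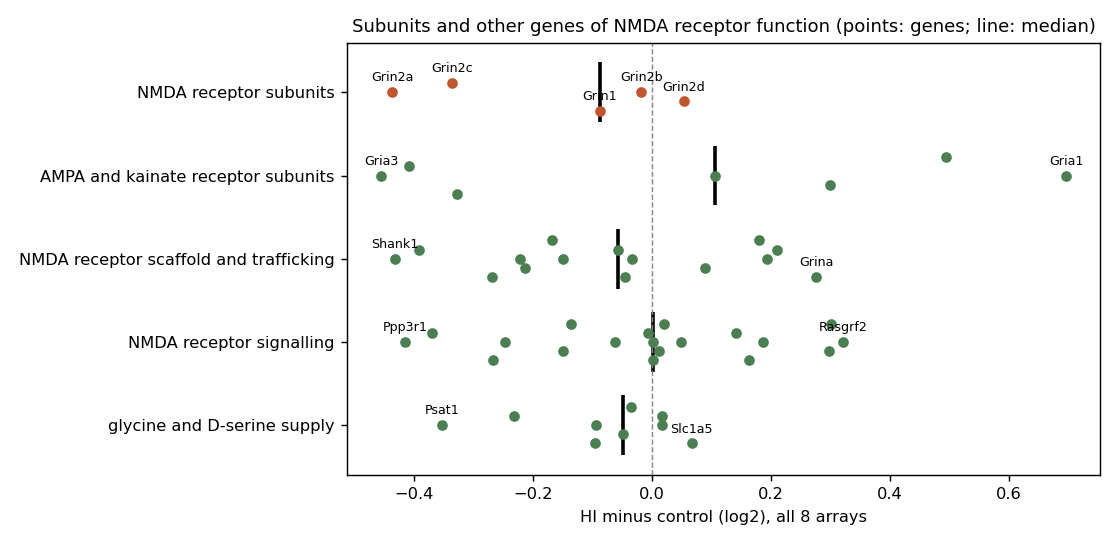
Change of each tested gene (points, HI minus control on the log2 scale, all 8 arrays) in the subunit list and 4 lists of related function, with the list's median as a black line; the subunits and the lowest and highest gene of each other list are named. Medians lie between -0.09 and 0.11, and Gria1 at 0.70 is the highest point.

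The genes most like each subunit over the 8 arrays were found by the root mean square (RMS) difference of levels centred on each gene's mean, among 5932 genes with a symbol. For Grin1 they were Caskin1 (RMS difference 0.0437) and Hk1 (0.0478), and for Grin2b Camlg (0.0363) and Hikeshi (0.0374). For Grin2a, Csnk1a1 (0.0716) was among the nearest, against an SD of Grin2a over arrays of 0.482. For Grin2c they were Abcd3 (0.0794) and Vezt (0.0801). When the distances were taken over the 7 arrays without control 1, 0 of these genes were again among the nearest of their subunit.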

How the data were processed

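Each array gave, per the file headers, a spot intensity from Agilent Feature Extraction 9.5.3.1: a processed signal, plus medians of the spot and of its local background. The authors' deposited series table holds log2 values whose centring is not stated; set against scanner values centred on each probe's median, its columns reached correlations of 0.9997 or more, and it served as an alternative.

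From 43379 non-control spots, log2 processed signal was taken relative to the 75th percentile of the array. Outlier-flagged spots were dropped and spots of a probe averaged. Probes stayed in if, on every array of 1 group or both, at least 0.5 of their spots were well above background; the brightest such probe stood for its gene. Accessions without version were matched to RefSeq transcripts of GRCr8, naming 26.2% of probes; that assembly is newer than the array, and coordinates were not used. HI and control were fitted with lmFit and eBayes (limma 3.58.1, R 4.3.3), and p-values were adjusted by Benjamini-Hochberg across every gene in the test. The fit was tested on simulated data. A summed level is log2 of the sum of a list's unlogged levels.

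Named were all subunits, the 2 genes of each related list with the smallest p, and the nearest genes (1 is not reported here); Dlg4, Camk2a and Srr, for their role, single markers, and list members with a small unadjusted p without control 1 were added after values were seen. The members and lists were chosen with earlier results of these data known. Alternatives were normexp background (on the median spot signal), quantile and median scaling, the authors' table, other filters, probe summaries and limma settings, a replicate block, and the omission of single arrays.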

Additional observations from a re-analysis of the deposited data

Results flagged for a closer look

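A sample was singled out where its gap to the nearest other animal of its group of 4 took up more of the group's range than Dixon's 95% critical value allows; chance does this in about 1 of 20 groups. This happened in 7 of 58 groups examined. Among the subunits, Grin2b in HI 2 measured -1.52 where the other HI animals lay between -1.55 and -1.54, a gap smaller than the SD between its spots. Grin2a minus Grin2b in control 1 was 0.11 with the 10-spot Grin2a probe, against -0.62 to -0.55 in the other controls, and 2.59 with the brighter probe, against 1.46 to 1.55. The other 4 concern summed levels of marker lists. Microglia markers stood out in control 1 (5.66 against 4.95 to 5.06), and hippocampus and thalamus markers in HI 2 (1.48 against 2.71 to 2.88). Choroid plexus and ependymal markers did so in control 2 (7.73 against 1.67 to 2.67), as did meningeal and fibroblast markers (5.22 against 3.18 to 3.43). High sums of these lists were not particular to control 2. The choroid plexus and ependymal sum was 4.10, 8.08 and 7.92 in HI 2, HI 3 and HI 4, and 2.05 in HI 1. The meningeal and fibroblast sum was 7.24, 5.51 and 5.37 in HI 2, HI 3 and HI 4, and 3.75 in HI 1. The part of uneven dissection in these values was not tested.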

How the results depend on the processing

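No subunit gene passed the adjusted threshold under any alternative run, and Grin2a and Grin2c stayed below 0 in all 21. Leaving out 1 array gave changes of -0.58 to -0.13 for Grin2a, -0.41 to -0.23 for Grin2c, -0.19 to 0.0462 for Grin1, -0.0583 to 0.0272 for Grin2b and 0.05 throughout for Grin2d, which could not be fitted without control 1, without HI 2 or with array weights. Signs turned for Grin1 with array weights (0.0550), for Grin2b with quantile scaling (0.0071), median scaling (0.0569) and array weights (0.0061), and for Grin2d with the authors' table (-0.0560) and with flagged spots kept (-0.0736); the cause was not tested. Grin2a minus Grin2b passed (exact permutation p = 0.0286) with the mean of the Grin2a probes (-0.40) and with the 10-spot probe (-0.37), and ranged from -0.52 to -0.15 without 1 array, where 3 against 4 cannot pass. Over all genes, 199 passed; leaving out 1 array gave 116 (without HI 3) to 793 (without control 1), with 125, 129 and 130 without HI 1, control 4 and HI 4, and array weights gave 1325. The count of AMPA and kainate members past the threshold was 0 to 1 without 1 array and 1 with array weights, and their median was -0.11 with no filter. The median of the signalling list was 0.0809, 0.0623, 0.10 and 0.0767 with normexp and quantile, normexp and 75th percentile, quantile and median scaling, and that of the glycine and D-serine list was 0.0405 with array weights. With the replicate number as a block 69 genes passed and no subunit did; same-numbered arrays did not deviate together (correlations of -0.16 to 0.03, and 0 of 8 arrays correlated best with their own number), so the numbers were not taken as pairs. Slide could not be a block, since each slide held 1 group.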

Other observations

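The Grin2d spot was the only one among 40749 probes with a single spot to be flagged as an outlier on at least 6 arrays, and 80 such probes were flagged on at least 1. Its 6 flags are among the 87 missing probe values of the whole data set. The median spot signal less the local background, which is less affected by uneven pixels, was 201.5, 447.0, 530.0 and 396.0 in controls and 582.5, 470.0, 661.5 and 584.0 in HI animals, before any scaling between arrays.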
